A study of Mus musculus with 6 samples.

Results

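Striatal projection neurons are the GABA-releasing output cells of the striatum. Those of the direct pathway carry the dopamine receptor D1 and make substance P, and those of the indirect pathway carry the dopamine receptor D2 and the adenosine receptor encoded by Adora2a and make enkephalin. Both kinds share DARPP-32, which turns cyclic AMP signals into inhibition of protein phosphatase 1, together with RGS9 and the phosphodiesterase PDE10A. The 8 genes named for these proteins are Drd1, Drd2, Adora2a, Tac1, Penk, Ppp1r1b, Rgs9 and Pde10a. They were chosen by function, and every probe set whose platform annotation names 1 of them was taken. This gave 15 probe sets of 45101, for 7 of the 8 genes and out of 18194 genes in all. Adora2a had no probe set naming it alone and is not analysed here. Drd1 and Tac1 had 2 probe sets each, Rgs9 3, Pde10a 5 and Drd2, Penk and Ppp1r1b 1 each.

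The arrays measured total RNA of 1 frontal cortical lobe per mouse at 21 days of age, from untreated animals of mixed C57BL/6 and 129 background, with 1 array per genotype. The 3 reeler models were a DAB1 KO, a REELIN KO (Reln gene) and an APOER2-VLDLR KO, which lacks both reelin receptors and is called the double knockout here. They were set against 3 comparison arrays, a VLDLR KO, an APOER2 KO (Lrp8 gene) and a wild type (WT). The receptor knockouts and the WT came from a cross of mice heterozygous for both receptors, and the DAB1 KO and REELIN KO from crosses of their own, which gave no comparison array. Reelin is a secreted protein that positions neurons during development. Its receptors Vldlr and Apoer2 pass the signal to the adaptor Dab1. The labels do not say which part of each gene was deleted.

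Signals are MAS5 intensities on a linear scale. The 27 bacterial control probe sets read at most 28.4 to 39.6 on each array, and median signals were 86.5 to 92.3. The targeted gene read 79.9 for Reln on the Reln knockout array against 1498 to 1880 elsewhere, and 13.7 and 4.2 for Lrp8 on the double and Apoer2 knockout arrays against 342.4 to 379.8 elsewhere. Vldlr read 185.6 and 187.3 on the double and Vldlr knockout arrays against 357.6 to 551.6 elsewhere. Dab1 read 478.5 on the Dab1 knockout array against 516.4 to 626.0 elsewhere, so its loss shows little at this probe set, and a probe set outside a deleted part checks nothing. The labels call every mouse male, but the signal of Xist, a transcript of the inactive X chromosome, was 124.9 on the Apoer2 knockout array and 3368 to 4006 on the other 5. Eif2s3y, a gene of the Y chromosome, read 367.5 on the Apoer2 knockout array and 0.6 to 7.7 on the other 5. By both signals only the Apoer2 knockout array matched the male label, so sex differed within the comparison arrays. The Apoer2 knockout array also held growth hormone RNA, with a Gh signal of 3705 against 13.1 to 32.4 elsewhere. Results below are therefore also given without that array where it matters.

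Of the members, 12 of 15 probe sets had a mean signal at or above 89.0, the median over probe sets, and all 7 measured genes had at least 1 such probe set. The same filter kept 11499 of 18194 genes in all. The 12 member probe sets read 76.1 to 3041 over the 6 arrays, each value above its array's brightest bacterial control. That follows largely from the filter on mean signal. Genes of striatal projection neurons thus gave signal on every array, although the labels name frontal cortex. Several of them are also made outside the striatum, such as Penk and Tac1 in cortical interneurons and Ppp1r1b in deep cortical layers, and the arrays hold no sample labelled striatum to set the levels against. Cortical excitatory neuron genes were present as well. Slc17a7, a vesicular glutamate transporter gene not confined to the cortex, read 2825 to 4730 in reeler models and 3449 to 3497 in comparison arrays. In whole tissue, fewer cells of a type and less RNA per cell cannot be told apart.

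RefSeq promoter windows were available for 5 of the 8 genes (Drd1, Tac1, Drd2, Rgs9 and Pde10a). Those of Tac1, Drd1 and Drd2 are shown because Tac1 was the member that departed furthest from WT, and because the dopamine receptor genes ran against it on every mutant array. Each is the 250 bases before the start site in build GRCm38.p6, read 5′ to 3′ along the gene's strand. Capitals mark CGTCA, the core of the element bound by the cyclic AMP-responsive factor CREB, and GGGCGG, the core of the GC box, on either strand.
Tac1, chr6:7554811-7555060, plus strand: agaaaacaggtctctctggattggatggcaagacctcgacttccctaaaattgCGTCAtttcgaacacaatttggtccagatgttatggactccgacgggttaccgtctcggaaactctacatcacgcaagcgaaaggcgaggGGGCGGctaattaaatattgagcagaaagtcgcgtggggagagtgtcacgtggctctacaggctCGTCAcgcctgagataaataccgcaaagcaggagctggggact
Drd1, chr13:54055659-54055908, minus strand: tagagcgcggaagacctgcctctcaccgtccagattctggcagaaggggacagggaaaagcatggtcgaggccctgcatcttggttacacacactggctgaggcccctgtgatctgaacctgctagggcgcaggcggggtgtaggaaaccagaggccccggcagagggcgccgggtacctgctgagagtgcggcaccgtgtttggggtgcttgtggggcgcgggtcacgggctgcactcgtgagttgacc
Drd2, chr9:49340153-49340402, plus strand: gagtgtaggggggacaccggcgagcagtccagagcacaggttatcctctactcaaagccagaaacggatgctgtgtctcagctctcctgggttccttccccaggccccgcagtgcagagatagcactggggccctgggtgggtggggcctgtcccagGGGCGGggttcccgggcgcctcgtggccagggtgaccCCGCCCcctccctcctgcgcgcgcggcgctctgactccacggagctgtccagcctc
The Tac1 window holds CGTCA at 2 places, 197 to 193 and 43 to 39 bases before the start, and GGGCGG once. The Drd2 window holds GGGCGG at 2 places and no CGTCA, and the Drd1 window shown holds neither. Drd1 has a second window in the table (chr13:54054781-54055030, not shown), which holds GGGCGG at 133 to 128 bases before its start and no CGTCA. Of 32851 promoter windows of the same length, 17.8% hold CGTCA and 32.7% hold GGGCGG, while the full element TGACGTCA stands in 1.55% of them and in none of the 7 member windows. The windows are 51.2% G and C for Tac1, 64.0% for Drd1 and 68.8% for Drd2. A match says only that these letters are present.

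The dopamine receptor genes were a little lower on every mutant array than on the WT array. Drd1, the receptor that raises cyclic AMP in direct pathway neurons, read 368.8 on the Dab1 knockout, 431.8 on the Reln knockout and 343.7 on the double knockout array at probe set 1456051_at, against 390.0 on the Vldlr knockout, 405.7 on the Apoer2 knockout and 461.6 on the WT array. WT was the highest array, and the 2 classes overlapped. The class means were 381.4 ± 45.4 in reeler models and 419.1 ± 37.6 in comparison arrays (SD, n = 3 each). The log2 difference, reeler models minus comparison arrays, was -0.13 (SE 0.12, adjusted p = 0.691, limma). Single arrays moved it, to -0.06 without the WT or the double knockout array and -0.22 without the Reln knockout array. Its other probe set, 1455629_at, ran the same way against WT on each mutant array, by -0.11 to -0.31 on the log2 scale.

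Drd2, the receptor that lowers cyclic AMP in indirect pathway neurons, read 313.9, 350.5 and 376.3 on the arrays of the Dab1, Reln and double knockouts, against 357.8 on the Vldlr knockout, 346.7 on the Apoer2 knockout and 418.3 on the WT array. WT was again highest, and the Dab1 knockout array was lowest. The classes overlapped, with a log2 difference of -0.10 (SE 0.11, adjusted p = 0.761, limma). It was -0.024 without the WT array, -0.036 without the Dab1 knockout array and -0.16 without the double knockout array. Against WT the 5 mutant arrays ran from -0.38 on the Dab1 knockout to -0.14 on the double knockout. All these differences share 1 WT array, so that both receptors lay below WT on each mutant array is 1 fact about that array. Over all 11499 genes kept, WT was the highest of the 6 arrays for 18.2% and the lowest for 19.7%.

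Among the peptide precursors, Tac1, which encodes substance P and neurokinin A, set the WT array apart. It read 2551 on the Dab1 knockout, 1830 on the Reln knockout and 2085 on the double knockout array, against 1996 on the Vldlr knockout, 2041 on the Apoer2 knockout and 1187 on the WT array. All 5 mutant arrays lay above WT, and both single receptor knockouts lay within the range of the reeler models. On the log2 scale the mutants exceeded WT by 1.09 (2.12-fold, Dab1), 0.61 (1.53-fold, Reln), 0.80 (1.74-fold, double), 0.74 (1.67-fold, Vldlr) and 0.77 (1.70-fold, Apoer2). Tac1 on the Dab1 knockout array was the only member at least 2-fold from WT in these comparisons, where 1.03% of all genes were that far from WT on the Dab1 knockout array, 2.49% on the Reln knockout, 0.931% on the double knockout, 0.722% on the Vldlr knockout and 0.391% on the Apoer2 knockout array. WT lay at least 1.5-fold below every other array for 0.148% of all genes, a fold chosen after the values were seen.

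Between classes, Tac1 averaged 2156 ± 366 in reeler models and 1741 ± 480 in comparison arrays (SD, n = 3 each). The log2 difference of 0.33 (SE 0.20) did not pass (adjusted p = 0.566, limma). The WT array decided its size: the difference was 0.08 without the WT array (adjusted p = 0.924) and 0.83 with WT as the only comparison array (adjusted p = 0.479). Its second probe set, 1431883_at, read 44.1 to 81.4, near the bacterial controls, and did not show the low WT value (61.1).

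Penk, the enkephalin precursor of indirect pathway neurons, set the Reln knockout array apart. It read 1764, 3041 and 1848 on the arrays of the Dab1, Reln and double knockouts, against 1775, 1694 and 1805 on the Vldlr knockout, Apoer2 knockout and WT arrays. The Reln knockout array was 1.64-fold above the next highest, and the other 5 arrays lay between 1694 and 1848. Over all genes, 1.09% stood at least 1.5-fold above every other array on the Reln knockout array. The fold, the array and the direction were chosen after the values were seen. Against WT the log2 difference was 0.74 on the Reln knockout array, -0.03 on the Dab1 knockout and 0.03 on the double knockout. The class difference of 0.29 (SE 0.18, adjusted p = 0.578, limma) rested on that array and was 0.04 without it (adjusted p = 0.870).

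**Figure D1:**
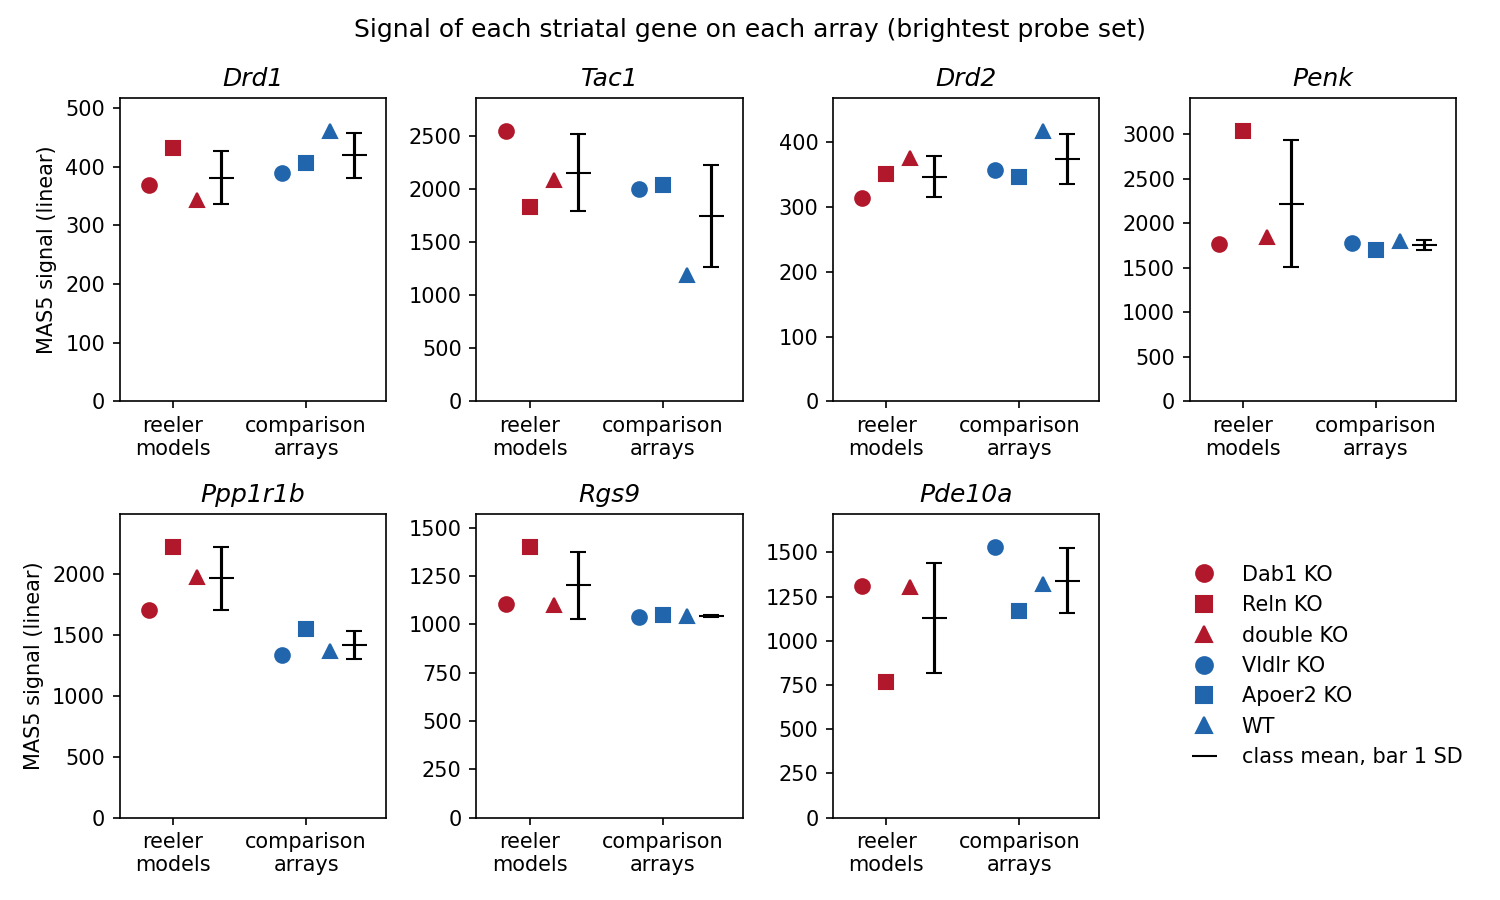
MAS5 signal (linear scale, axis from 0) of the 7 measured genes at their brightest probe set, with reeler models (red) left of comparison arrays (blue), 1 point per array, and each class mean with 1 SD (n = 3). Ppp1r1b and Rgs9 are higher on all 3 reeler arrays than on all 3 comparison arrays, Penk and Pde10a have the Reln knockout array apart from the rest, and Tac1 has the WT array apart.

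Of the genes that act inside the cell, Ppp1r1b came nearest to the threshold. DARPP-32, its product, inhibits protein phosphatase 1 once protein kinase A has phosphorylated it. Ppp1r1b read 1703 on the Dab1 knockout, 2218 on the Reln knockout and 1971 on the double knockout array, against 1334 on the Vldlr knockout, 1551 on the Apoer2 knockout and 1363 on the WT array. All reeler arrays lay above all comparison arrays, with means of 1964 ± 257 and 1416 ± 118 (SD, n = 3 each). The log2 difference was 0.46 (SE 0.11, 1.37-fold), with an unadjusted p = 0.00255 and an adjusted p = 0.224 in limma, so it did not pass over all genes.

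The Ppp1r1b difference was refitted under 16 alternatives on these arrays or some of them, which are not separate checks. Those that change only the filter, the prior or the probe sets fitted leave it unchanged by construction. The Ppp1r1b difference kept its sign, between 0.37 without the Reln knockout array and 0.56 without the Dab1 knockout array. Its unadjusted p lay under 0.05 in all 16 (at most 0.0233) and its adjusted p in none (0.139 to 0.839). Without the Apoer2 knockout array the difference was 0.53 (adjusted p = 0.462). Among all genes, 5.23% were higher at an unadjusted p under 0.05.

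Rgs9, a regulator that speeds the shutting off of G protein signals below the D2 receptor, was the other member whose classes did not overlap. At 1418691_at it read 1105, 1403 and 1102 on the arrays of the Dab1, Reln and double knockouts, against 1040, 1050 and 1045 on the Vldlr knockout, Apoer2 knockout and WT arrays. The 3 comparison arrays lay close together and the Dab1 and double knockout arrays only just above them. The log2 difference was 0.19 (SE 0.11, adjusted p = 0.538, limma), and 0.08 without the Reln knockout array (adjusted p = 0.740). Its other 2 probe sets were below the signal filter, and the classes overlapped at both. Their log2 differences were 0.40 at 1426033_at and -0.12 at 1439635_at. 1426033_at read 60.9, 92.1 and 134.9 on the arrays of the Dab1, Reln and double knockouts, against 71.6, 38.3 and 87.4 on the Vldlr knockout, Apoer2 knockout and WT arrays, and 1439635_at read 34.8 to 79.7.

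Pde10a, which breaks down cyclic AMP and cyclic GMP, was lowest on the array where Penk, Ppp1r1b and Rgs9 were highest. At its brightest probe set, 1439618_at, it read 1312, 769.0 and 1304 on the arrays of the Dab1, Reln and double knockouts, against 1532, 1168 and 1322 on the Vldlr knockout, Apoer2 knockout and WT arrays. The Reln knockout array was 1.5-fold below the next lowest. Over all genes, 0.913% lay at least that far below every other array on it. The fold, the array and the direction were chosen after the values were seen. Probe sets 1458499_at (717.5 on the Reln knockout, against 811.4 to 1096 elsewhere) and 1419390_at (200.7 against 304.9 to 395.4) also had the Reln knockout array lowest. At 1419389_at the double knockout array was lowest (168.2, with 186.8 on the Reln knockout), and at 1432490_a_at, the dimmest, the Vldlr knockout array was (76.1).

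Every Pde10a probe set was below WT on the Reln knockout array, by -0.18 to -0.89 on the log2 scale. The class difference at the brightest was -0.27 (SE 0.20, adjusted p = 0.618, limma) and -0.03 without the Reln knockout array (adjusted p = 0.944). All 5 probe sets had negative class differences, from -0.09 to -0.40, with overlapping classes at each. In the fit over all 45101 probe sets, the lowest adjusted p among the 15 of the members was 0.377, at Ppp1r1b, where 0.0443% of all probe sets passed (limma).

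**Figure D2:**
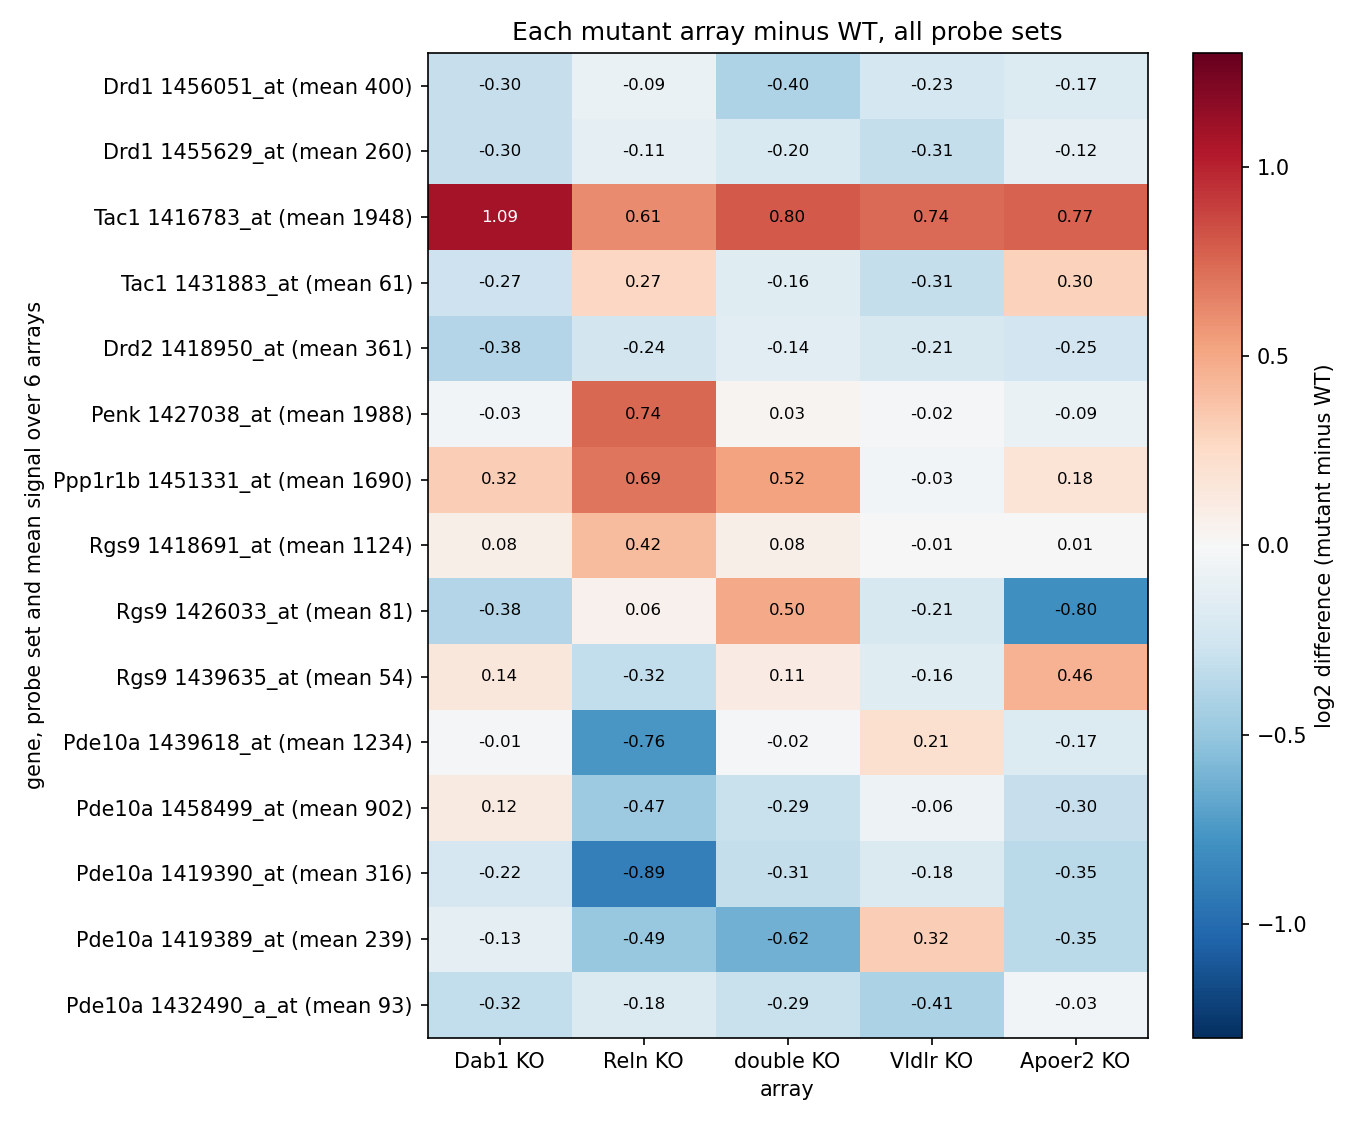
Log2 difference of each mutant array from the WT array (columns) at all 15 probe sets (rows, with their mean signal over 6 arrays), with no replicate at any genotype. The brightest Tac1 probe set is above WT in each column (0.61 to 1.09), both Drd1 probe sets and Drd2 are below WT in each, and all 5 Pde10a probe sets are below WT on the Reln knockout array.

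Over the 7 genes in the fit, 4 had a log2 difference above 0 and 3 below, and the median was 0.19 against 0.0084 over all genes. That median was 0.04 without the Reln knockout array and 0.08 without the WT array. None passed an adjusted p of 0.05, as 0.13% of all genes did (limma). At an unadjusted p under 0.05 there was 1 member (11% of all genes), and for 2 the classes did not overlap, both higher, where 17.7% of all genes did not overlap (9.04% higher, 8.67% lower). The summed signal of the 7 brightest probe sets was 9030 to 10043 in reeler models and 7602 to 8424 in comparison arrays, a sum in which Tac1, Penk and Ppp1r1b weigh most. The members did not move as a block. On the Reln knockout array Penk, Ppp1r1b and Rgs9 were at their highest and Pde10a at its lowest, while Drd1, Drd2 and Tac1 were neither. Over all genes that array was the highest for 22.1% and the lowest for 25.3%.

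The receptor cross allows the loss of both receptors to be set beside the loss of each, with 1 array per genotype and no test. Ppp1r1b on the double knockout array exceeded the mean of the single receptor knockouts by 0.45 on the log2 scale (1.36-fold). It was the only member at the probe sets used that lay at least 1.2-fold from that mean, a fold chosen after the values were seen, where 11% of all genes lay that far above it and 9.84% below. The other 6 genes differed by -0.20 (Drd1) to 0.09 (Penk and Drd2).

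Other genes of projection neurons, in a list made for this report, did not move as a group. Of 23 listed, 22 had a probe set and 21 passed the signal filter, and these had a median log2 difference of 0.01, with 12 above 0 and 9 below, and none passed in limma. Without the Apoer2 knockout array 6 were above 0 and 15 below, with a median of -0.06. Tmem158 (0.24) and Arpp21 (0.19), which encodes a cyclic AMP-regulated phosphoprotein, were highest. Syndig1l (-0.39) and Scn4b (-0.25), a sodium channel subunit, were lowest. Their summed signal was 19283 to 21265 in reeler models and 18599 to 20716 in comparison arrays. Syndig1l had an adjusted p of 0.414 (limma).

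Other genes of the direct pathway (4 of 6 past the filter) had a median of -0.04, from Pdyn, the dynorphin precursor (0.25), and Sfxn1 (0.02) to Isl1 (-0.09) and Eya1 (-0.15), with 0 past the test. Without the Apoer2 knockout array Sfxn1 was at -0.04. Pdyn, like Penk, was highest on the Reln knockout array, as were 22.1% of all genes. Pdyn read 96.7, 223.8 and 153.1 on the arrays of the Dab1, Reln and double knockouts, against 120.1, 121.4 and 124.2 on the Vldlr knockout, Apoer2 knockout and WT arrays. Of the indirect pathway list only the receptor gene Gpr6 was measured (0.06, adjusted p = 0.891). Among 16 signalling partners past the filter, which hold the G protein, adenylyl cyclase, kinase, phosphatase and peptide processing genes that act with the members, 11 were above 0 and 5 below (median 0.03) and 0 passed. Cdk5, a kinase that phosphorylates DARPP-32 (0.22), and the dynorphin receptor gene Oprk1 (0.18) were highest, and Gnb5, the G protein beta subunit that binds RGS9 (-0.18), and Prkar2b (-0.15) lowest. Without the Apoer2 knockout array Oprk1 was at -0.04, and 7 of the 16 were above 0. None of the 3 other dopamine and adenosine receptor genes with a probe set passed the signal filter.

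**Figure D3:**
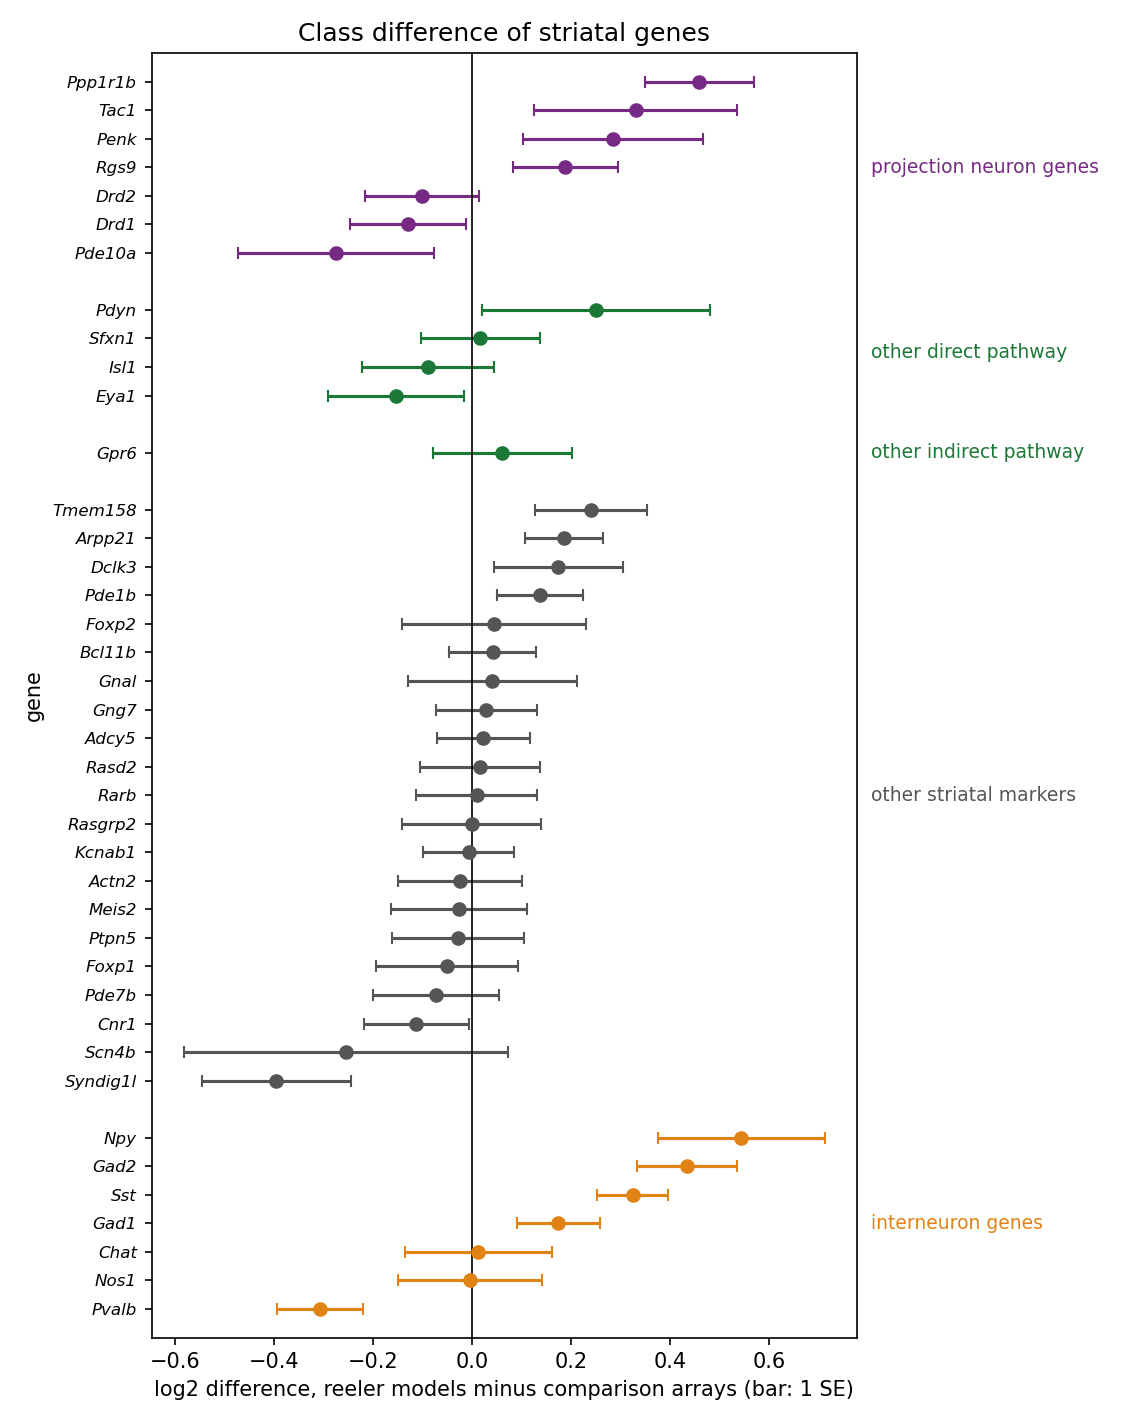
Log2 difference of reeler models minus comparison arrays (points, limma) with 1 SE for the 7 measured genes and the genes past the signal filter in 4 further lists. Ppp1r1b has the highest difference of the projection neuron genes (0.46), beside Npy (0.54) and Gad2 (0.43) among interneuron genes, and the other striatal markers scatter around 0.

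Several genes of inhibitory interneurons had classes that did not overlap, as Ppp1r1b did: 4 of 7, with 3 higher and 1 lower, where 17.7% of all genes did not overlap (9.04% higher, 8.67% lower). Gad2, which makes GABA in interneurons and projection neurons alike, read 1449, 1869 and 1603 on the arrays of the Dab1, Reln and double knockouts, against 1183, 1195 and 1219 on the Vldlr knockout, Apoer2 knockout and WT arrays (log2 difference 0.43, adjusted p = 0.224, limma). The peptide genes Npy (0.54) and Sst (0.32) were higher without overlap as well, and Pvalb was lower without overlap (-0.31). Of the 7 interneuron genes past the filter 5 were above 0, the median was 0.17, and 0 passed in limma. Their summed signal over 10 genes was 13330 to 15297 in reeler models and 11962 to 12617 in comparison arrays. Chat, the marker of cholinergic interneurons, had a log2 difference of 0.01, and Nos1 of -0.0039. What part interneuron RNA has in the signals of the members was not tested, nor what part cerebellar RNA has in the Pvalb value.

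Among the lists for other brain regions, the cerebellar list alone had genes past the test. Cerebellar granule cell genes summed to 3832 to 5236 in reeler models and 12129 to 15216 in comparison arrays, and 7 of 10 fell in limma, Fat2 (-3.21) and Gabra6 (-3.07) furthest. These genes were known from earlier results to be lower. The others past the test were Cbln3, Neurod1, En2, Zic1 and Cbln1. Cadps2 (-0.98, adjusted p = 0.106), Grm4 (-0.92, adjusted p = 0.0585) and Gabrd (-0.90, adjusted p = 0.149) did not pass in limma. Without the Apoer2 knockout array 6 of 10 passed, and Fat2 did not (-3.24, adjusted p = 0.0637). Cortical excitatory neuron genes summed to 10801 to 11730 in reeler models and 9776 to 11004 in comparison arrays, with 0 of 10 past the test (median 0.06, Cux2 0.53 and Rorb 0.30 highest, Fezf2 and Tbr1 -0.12 lowest). Dopamine synthesis and turnover genes (6, median 0.06) had Ddc (0.37) and Th (0.26) highest and Maob (-0.11) and Slc18a2 (-0.05) lowest, with 0 past the test.

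Thalamus genes (7 past the filter, median 0.03) ran from Lhx9 (0.20) and Tcf7l2 (0.18) to Ntng1 (-0.14) and Rora (-0.25). Hypothalamus genes (8, median -0.01) ran from Gal (0.64) and Oxt (0.23) to Pomc (-0.21) and Cartpt (-0.24), choroid plexus genes (4, median -0.06) from Ttr (-0.0059) and Folr1 (-0.06) to Clic6 (-0.06) and Kcnj13 (-0.07), and olfactory bulb genes (6, median -0.19) from Th (0.26) and Doc2g (0.17) to Calb2 (-0.47) and Eomes (-0.98). In these 4 lists 0 genes passed in limma. The Apoer2 knockout array decided some of these values: without it Pomc was at 0.20, Ttr at 0.08, Folr1 at 0.05 and Kcnj13 at 0.04, each with the opposite sign, and Eomes was at -0.58. No gene of any list was at 0 on any array. The part that RNA of these regions has in the signals of the members was not tested, nor the part of cerebellar RNA in the Rora, Calb2 and Eomes values.

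The Reln knockout array, on which Penk stood apart, also had the highest signals of the activity-induced genes Arc (1455, against 64.4 to 778.9 elsewhere) and Fos (1999, against 449.0 to 1262 elsewhere). The next highest array for both was the Apoer2 knockout (778.9 and 1262), on which Penk was lowest (1694). The part of Arc and Fos in the Penk signal was not tested. The quotient of 5′ and 3′ probe set signals, a sign of RNA quality, was 1.40 for Gapdh and 0.757 for Actb on the Reln knockout array, against 1.37 to 1.43 and 0.688 to 0.753 elsewhere.

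The mean of the 7 genes' log2 signals, each centred on its own mean, was 0.11 on the Reln, 0.04 on the double and 0.02 on the Dab1 knockout array, against -0.02 on the Vldlr knockout, -0.05 on the Apoer2 knockout and -0.09 on the WT array. Single genes weigh on a mean of 7. On the log2 scale Tac1 differed by -0.80 on the WT array from the mean of the other 5. Penk differed by 0.77 on the Reln knockout array from the mean of the other 5. The order of the arrays in this mean was not tested. The genes closest to the profile of the mean among the 4427 candidates with a log2 range of at least 0.5 were Sfrp2, Crip2, Igfbp4, Ensa and Amz1. Igfbp4, which encodes a binding protein of insulin-like growth factors, read 2108, 3006 and 2469 on the arrays of the Dab1, Reln and double knockouts, against 1806, 1654 and 1479 on the Vldlr knockout, Apoer2 knockout and WT arrays. Likeness was measured as Pearson's r over the 6 arrays, which was 0.985 to 0.996 for these 5 and was the criterion of their choice.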

How the data were processed

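The deposited values are signal intensities, not log transformed, for which the submitters' processing notes name MAS5 and Affymetrix Expression Console without a version. The 2% trimmed mean lay at 249.4 to 249.5, so all arrays share 1 scaling target. Gene names came from the platform annotation of the probe sets (34958 name 1 gene, 932 several, 9211 none here). RefSeq's table checked names only, since the sources used here name no build for the arrays.

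Each gene took its brightest probe set, those ending in _x_at last, and 11499 of 18194 genes with a mean signal of at least 89.0 were kept. The scale was log2(signal + 28.1), 28.1 being the 25th percentile of all values, which understates changes of dim genes. Classes were compared with limma 3.58.1 in R 4.3.3 (trended prior, Benjamini-Hochberg adjustment over all genes kept, and again over all probe sets). The fit was also run on simulated data with independent noise for each gene. Arrays of a class were alike there, unlike the genotypes here, so that run does not bear on these p-values. The 3 genotypes of a class are not replicates of 1 genotype. A p-value here sets the class difference against the spread within the classes of these 6 arrays, moderated by the trended prior. That spread also holds differences of genotype, cross and sex. The class difference itself holds cross and sex as well. The Dab1 and Reln knockout arrays came from other crosses than all comparison arrays. The only array with male signals, that of the Apoer2 knockout, was a comparison array. Effects of class, cross and sex therefore cannot be told apart in these differences. Mutant arrays against WT are 1 array each and have no test. The members, lists and tests were chosen with earlier results of these data known. Named are all members, the 2 highest and 2 lowest genes of each list, genes past the test, and the 5 genes with the most similar profile. Sst, Chat, Slc17a7, Cadps2, Arc, Fos and the array checks were named outside that rule. The lists were also fitted without the Apoer2 knockout array, an alternative chosen after seeing the data.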

Additional observations from a re-analysis of the deposited data

Results flagged for a closer look

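The loss of the same receptor can be read in mice with and without the other receptor, and for 4 genes the log2 differences had opposite signs. How many of all genes do so was not counted, so that number is no result about these genes. Each difference is 1 array against 1, several lie near 0, and differences between such values were not tested. For Drd2 and Penk the readings by Vldlr and by Apoer2 use the same arrays and are not separate results. Drd2 differed by 0.11 for loss of Vldlr without Apoer2 (double against Apoer2 knockout) and by -0.21 with it (Vldlr knockout against WT). For loss of Apoer2, Drd2 differed by 0.068 without Vldlr (double against Vldlr knockout) and by -0.25 with it (Apoer2 knockout against WT). Penk differed by 0.12 and -0.024 for loss of Vldlr without and with Apoer2, and by 0.057 and -0.090 for loss of Apoer2 without and with Vldlr. Ppp1r1b differed by 0.34 for loss of Vldlr without Apoer2 and by -0.031 with it, and Rgs9 by 0.068 and -0.0059.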

How the results depend on the processing

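The class differences of the 7 genes were recomputed under 16 alternatives each, and none of the 112 values crossed an adjusted p of 0.05. The sign changed once, for Drd2 with the receptor cross as a covariate (0.01), a fit in which the class difference rests on the double knockout array. That fit also moved Penk to 0.07 (main fit 0.29), Rgs9 to 0.07 (0.19), Pde10a to -0.03 (-0.27) and Drd1 to -0.26 (-0.13). Tac1 (0.30, main fit 0.33) and Ppp1r1b (0.47, main fit 0.46) moved little. The sign could not change where only the filter or the prior differed, or where all probe sets were fitted. There the difference of the brightest probe set is the same by construction. Over all genes 2 were higher and 13 lower. There was 1 higher gene with no filter, with a filter at the 75th percentile, with the mean of all probe sets, with no trend and with all probe sets, there were 1 higher and 8 lower with the cross covariate, and 0 and 0 with WT as the only comparison array. Leaving out 1 array gave 1 to 2 higher and 0 to 20 lower genes, with 0 lower without the WT array. Genes at least 2-fold from WT on the Dab1, Reln, double, Vldlr and Apoer2 knockout arrays numbered 119, 286, 107, 83 and 45, but 407, 573, 386, 305 and 266 with no filter and 43, 132, 39, 27 and 15 with the stricter one. With the mean of all probe sets, Tac1 on the Dab1 knockout array lay 0.41 above WT on the log2 scale in place of 1.09, since its dim probe set then weighs equally. No paired analysis was possible because each genotype has 1 array and the labels give no replicate numbers. The number of arrays limits every value, and probe sets near the bacterial controls give bounds more than levels.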
